A study of Mus musculus with 31 samples.

Results

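Id1, Id2, Id3, Bambi, Smad6 and Smad7 are genes of the bone morphogenetic protein (BMP) pathway, and their messages were followed in macrophages given LPS or live E. coli. Every probe whose annotated symbol was exactly one of these names was taken. That gave 7 probes for 6 genes out of 13872 probes on the array, and 6 of the 7 had enough values to be tested, as had 7325 probes in all. Id1 and Id2 were selected on their LPS ratios, which differed between genotypes in these same data, and the other 4 genes were added as relatives in the pathway. The LPS values of Id1 and Id2 are therefore given as a description with no test, and only their E. coli values are tested. Those tests still draw on the LPS mice, since the fit takes its spread from all groups together. Comparisons between stimuli for Id1 and Id2 reuse those LPS values and are described in the same way.

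BMP ligands bind paired receptor kinases at the cell surface, which phosphorylate Smad1, Smad5 and Smad9, and these enter the nucleus with Smad4 to switch on target genes. Id1, Id2 and Id3 are among the best known of these targets. The Id proteins are helix-loop-helix proteins without a DNA-binding region, so they pair with E proteins such as Tcf3 and Tcf12 and keep them off DNA. Smad6 and Smad7 are inhibitory Smads that BMP and TGF-beta signals induce as feedback, and Bambi is a receptor-like protein with no kinase domain that blocks the receptors. In blood cells Id proteins are known for steering lineage choice, Id2 above all in dendritic cells and innate lymphocytes.

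The macrophages were grown from marrow of mice aged 6 to 8 weeks, either C57BL/6J wild-type or without MyD88 (MyD88-/-), the adaptor of most Toll-like receptors. Marrow was cultured for 8 days with medium conditioned by L929 cells, which supplies the growth factor CSF-1, so all groups share that exposure. Cells then received LPS re-purified from E. coli O111 at 10 ng/mL, live E. coli at 1 bacterium per macrophage, or medium alone (mock) for 2 h. Each of 31 two-colour spotted arrays paired stimulated with mock RNA, and the 4 groups, each genotype with each stimulus, hold 4 mice each. Every mouse has a pair of arrays with the dyes swapped, apart from mouse 4 of MyD88-/- LPS with 1 array. The labels describe the MyD88-/- mice as deficient and name neither the allele nor littermates.

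A value is the authors' log2 ratio, read here as stimulated over mock. That direction is likely but the labels do not state it, so a negative value is a fall if it holds. The ratio gives no level, so genes are not ranked by abundance. Each value below is the mean of a mouse's dye pair, and a call is an adjusted p under 0.05 in limma, with Benjamini-Hochberg adjustment over the 7325 probes tested. The arrays carried 5564 to 10497 values each, and the number of arrays limits the precision. Dye pairs correlated with r from 0.256 to 0.71 across probes. Of 13 macrophage markers listed 11 were on the array, with values on a median of 30 of the 31 arrays. The median was 9 arrays for T cell and for B cell markers, 17 for neutrophil, 17.5 for dendritic cell, 8.5 for erythroid and 16 for stromal and endothelial markers. Of the 8 macrophage markers tested 0 differed between genotypes with either stimulus in limma, with medians of 0.16 for LPS and 0.20 for E. coli and unadjusted p under 0.05 for 1 and 3 of them. Over all 7325 probes 653 had an unadjusted p under 0.05 for the LPS genotype difference and 974 for E. coli. Some macrophage markers did respond to the stimuli. Msr1 was called higher in all 4 groups, Fcgr1 lower in all but MyD88-/- E. coli, and Cd68 lower in wild-type LPS. Of 15 markers of the other cell types tested, 0 differed between genotypes with either stimulus in limma, with unadjusted p under 0.05 for 2 with LPS and 1 with E. coli. Among these 15, picked after their values were seen, 2 fell in all 4 groups as Id3 did. They were the endothelial receptor gene Kdr (-2.24 and -1.77 with LPS in wild-type and MyD88-/- cells, -1.92 and -1.80 with E. coli) and the T cell gene Cd28 (-1.10, -1.02, -1.12 and -1.25 in that order). Cd4, the other T cell marker tested, had 0.16, 0.33, -0.40 and -0.23 with no call. Stromal Acta2 had 0.59, -0.21, 0.33 and 0.69, also with no call. The other calls among the 15 were the B cell gene Cd79a, lower in MyD88-/- LPS, Zbtb46 of dendritic cells, higher in wild-type LPS, and stromal Sparc, higher in wild-type E. coli. In the same order of groups 2, 3, 2 and 2 of the 15 were called lower, where 9.04%, 4.7%, 11.8% and 4.42% of all probes were. The part of cell composition in the results was not tested, and in RNA of whole cultures fewer cells of a type and less RNA per cell cannot be told apart. Myd88 itself (probe 12197) had ratios between 0.74 and 4.70, above 0 in 16 of 16. Since each ratio is against mock cells of the same genotype, it does not check the genotype.

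Id1 lay far below mock in every mouse with both stimuli, and lower in every MyD88-/- mouse than in any wild-type mouse. The probe (7517) had values on 30 of 31 arrays. With LPS the wild-type mice 1 to 4 had log2 ratios of -2.38, -2.07, -1.61 and -1.32. The MyD88-/- mice had -2.50, -3.42, -3.35 and -3.84. All 8 ratios were below 0 and the genotypes did not overlap, although the nearest pair of mice lay close together.

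With E. coli the wild-type mice had Id1 ratios of -2.01, -2.42, -2.0 and -1.32. The MyD88-/- mice had -3.19, -3.47, -2.79 and -2.86. Again no MyD88-/- mouse reached the range of the wild-type mice. The wild-type E. coli mean was -1.94 ± 0.46 (SD, n = 4), which leaves 26.1% of the mock message (limma adjusted p = 1.38e-05). The MyD88-/- E. coli mean was -3.08 ± 0.32 (SD, n = 4), or 11.8% of mock (limma adjusted p = 2.02e-07). It was the lowest of the 7325 fitted responses of MyD88-/- cells to E. coli. Among the wild-type responses to E. coli Id1 ranked 26 from the lowest. The LPS means, given as a description, were -1.84 ± 0.47 and -3.28 ± 0.56 (SD, n = 4 each).

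The difference between genotypes in the E. coli response of Id1 did not pass the threshold over all probes. MyD88-/- minus wild-type was -1.14 ± 0.31 (SE), with a 95% interval of -1.81 to -0.48, an unadjusted p of 0.00238 and an adjusted p of 0.109 in limma. An exact 2-sided permutation test of 4 against 4 mice gave p = 0.029, the smallest that design allows, and 0.143 after adjustment over the 10 such tests run on the members. The E. coli arrays used the same numbered mice, and possibly the same mock RNA, as the LPS arrays on which Id1 was chosen, so they are not fully separate evidence. The spread in the limma fit also came partly from those LPS arrays. With only the E. coli groups in the fit the limma adjusted p was 0.199. For LPS the difference was -1.43, given with no test because it led to the choice of the gene.

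The dye orientations of Id1 did not always match. The gap between the arrays of a pair had a median of 0.51 on the log2 scale over 14 pairs and reached 1.75 in wild-type E. coli mouse 2, where the swapped array read -1.54 and the unswapped array -3.29. On unswapped arrays alone the E. coli difference between genotypes was -0.87 (limma adjusted p = 0.481), and on swapped arrays alone it was -1.42 (adjusted p = 0.0647). With all arrays in 1 fit, a dye term and a random block for mouse and stimulus, it was -1.14 and passed (limma adjusted p = 0.0209). That fit counts arrays, with a block correlation of 0.118, so the arrays of a dye pair weigh nearly as separate mice. The estimate was that of the main fit and only the SE was smaller (0.27 against 0.31).

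**Figure D1:**
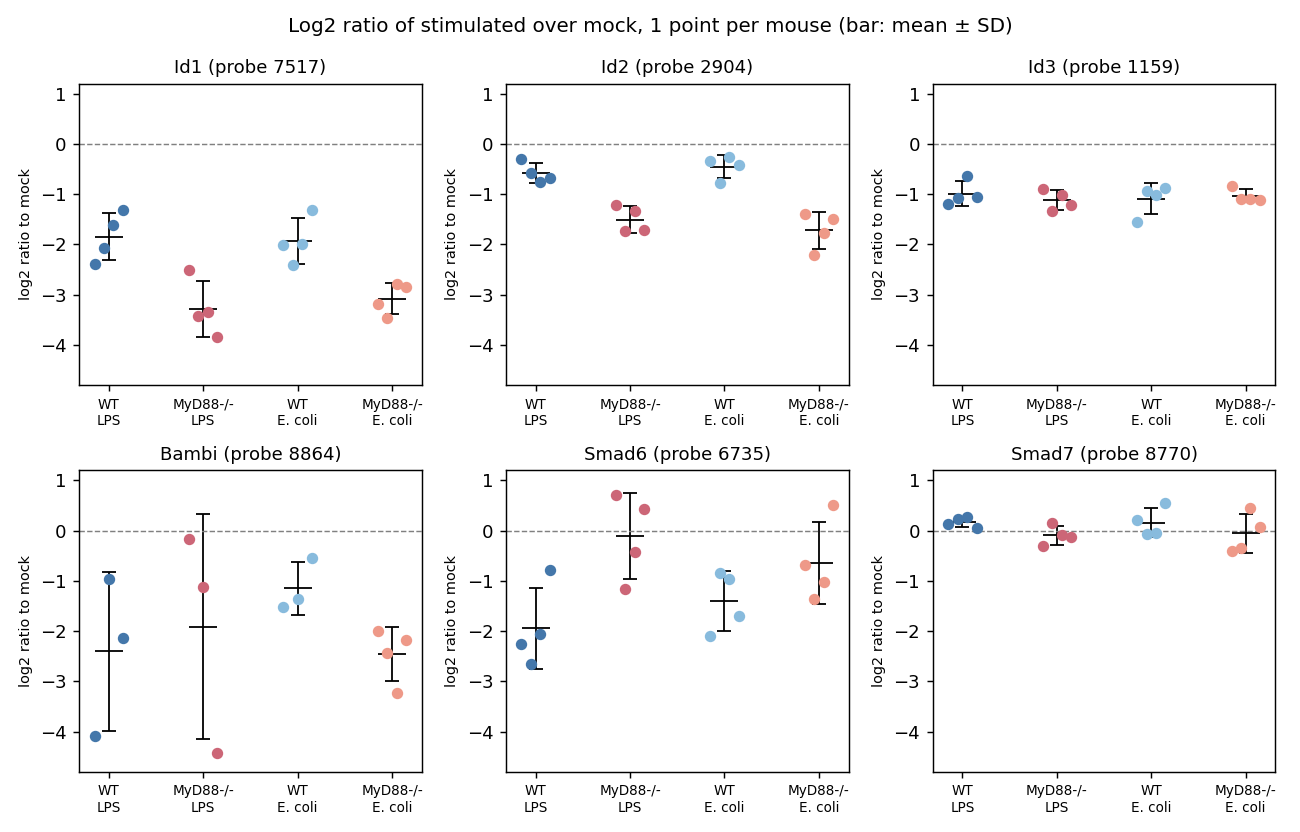
Log2 ratio of stimulated over mock (y axis) for the tested probe of each member in the 4 groups (x axis), with 1 point per mouse and bars for the mean and SD. Id1 and Id2 lie lower in MyD88-/- than in wild-type mice with both stimuli, Id3 lies near -1 in all 4 groups, and Smad7 lies near 0.

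Id2 lay modestly below mock in wild-type cells and well below it in MyD88-/- cells. The main probe (2904) had a value on all 31 arrays. With LPS the wild-type mice had ratios of -0.29, -0.59, -0.75 and -0.68, and the MyD88-/- mice had -1.22, -1.74, -1.34 and -1.72. All mice lay below 0 and the genotypes were well apart, a description of the values that led to the choice of the gene.

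With E. coli the wild-type mice had Id2 ratios of -0.35, -0.78, -0.26 and -0.41. The MyD88-/- mice had -1.40, -2.21, -1.78 and -1.50. Every MyD88-/- mouse lay below every wild-type mouse. The wild-type mean was -0.45 ± 0.23 (SD, n = 4), 73.2% of mock, and passed narrowly (limma adjusted p = 0.0398). That call ended without any 1 of wild-type E. coli mice 1 to 4, with adjusted p of 0.0767, 0.191, 0.0553 and 0.0914. The MyD88-/- mean was -1.72 ± 0.36 (SD, n = 4), 30.3% of mock (limma adjusted p = 1.05e-06).

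Among the members Id2 alone passed the test of a genotype difference. In the E. coli response MyD88-/- minus wild-type was -1.27 ± 0.21 (SE), with a 95% interval of -1.71 to -0.83 and a limma adjusted p of 0.00585. The exact 2-sided permutation p was 0.029, or 0.143 over the 10 tests, and 0.029 is the smallest possible with 4 against 4 mice. The E. coli difference of Id2 kept its size on unswapped arrays alone, at -1.28, and missed the threshold there (limma adjusted p = 0.0518). It also missed it when only the E. coli groups entered the fit (-1.27, adjusted p = 0.0834). The LPS difference was -0.93, again with no test. As for Id1, the arrays of both stimuli share numbered mice, and the main fit took its spread from both.

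Between the stimuli the Id1 and Id2 ratios lay close together within a genotype. E. coli minus LPS was -0.09 for Id1 and 0.13 for Id2 in wild-type cells, and 0.20 for Id1 and -0.22 for Id2 in MyD88-/- cells. These are descriptions with no test. Over the whole array 0 of 7325 probes (0%) passed for a stimulus difference in wild-type cells, in MyD88-/- cells or for the interaction of genotype and stimulus in limma. Unadjusted p under 0.05 were found for 297, 177 and 219 probes.

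A second probe annotated as Id2 (12868) carried a value above the floor on 8 arrays and a value at the floor on 1. The floor is a ratio of 0.01 that the deposited values do not go below, and it was treated as missing. With LPS these were 4 arrays of 3 wild-type mice and 1 array of a MyD88-/- mouse, and with E. coli 2 arrays of wild-type mice and 1 of a MyD88-/- mouse. Their ratios ran from -1.19 to 1.90 with both signs among the wild-type LPS arrays, so the sparse probe neither matches nor tests the pattern of the main Id2 probe.

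Id3 fell by about the same amount in all 4 groups. The probe (1159) had a value on all 31 arrays. With LPS the wild-type mice had ratios of -1.20, -1.08, -0.64 and -1.06, and the MyD88-/- mice had -0.89, -1.33, -1.01 and -1.23. With E. coli the wild-type mice had -1.55, -0.93, -1.03 and -0.87, and the MyD88-/- mice had -0.84, -1.09, -1.09 and -1.11. The genotypes overlapped with both stimuli, and all 16 ratios lay below 0.

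The Id3 means were -0.99 ± 0.25, -1.11 ± 0.20, -1.09 ± 0.31 and -1.03 ± 0.13 (SD, n = 4 each) in wild-type and MyD88-/- cells given LPS, and then in those given E. coli. They correspond to between 46.2% and 50.2% of mock, and each passed in limma, with adjusted p of 7.08e-05, 3.12e-05, 2.32e-05 and 6.26e-05. The genotype difference was -0.12 for LPS (95% interval -0.52 to 0.28, limma adjusted p = 0.884) and 0.06 for E. coli (95% interval -0.34 to 0.46, adjusted p = 0.935). These intervals leave out differences of the size seen for Id2. One swapped array, of wild-type LPS mouse 3, read 0.15, and every other Id3 array was below 0.

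The contrast of Id1 and Id2 with Id3 was also taken within each mouse of the E. coli groups, a comparison chosen after the values were seen. Id1 minus Id3 was -0.84 ± 0.50 in wild-type and -2.05 ± 0.37 in MyD88-/- mice (SD, n = 4 each). Id2 minus Id3 was 0.64 ± 0.45 in wild-type and -0.69 ± 0.31 in MyD88-/- mice (SD, n = 4 each). Thus Id2 fell less than Id3 in every wild-type mouse and more than Id3 in every MyD88-/- mouse. The genotypes did not overlap in either difference, which is given with no test because the separate values of Id1, Id2 and Id3 had already shown it.

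**Figure D2:**
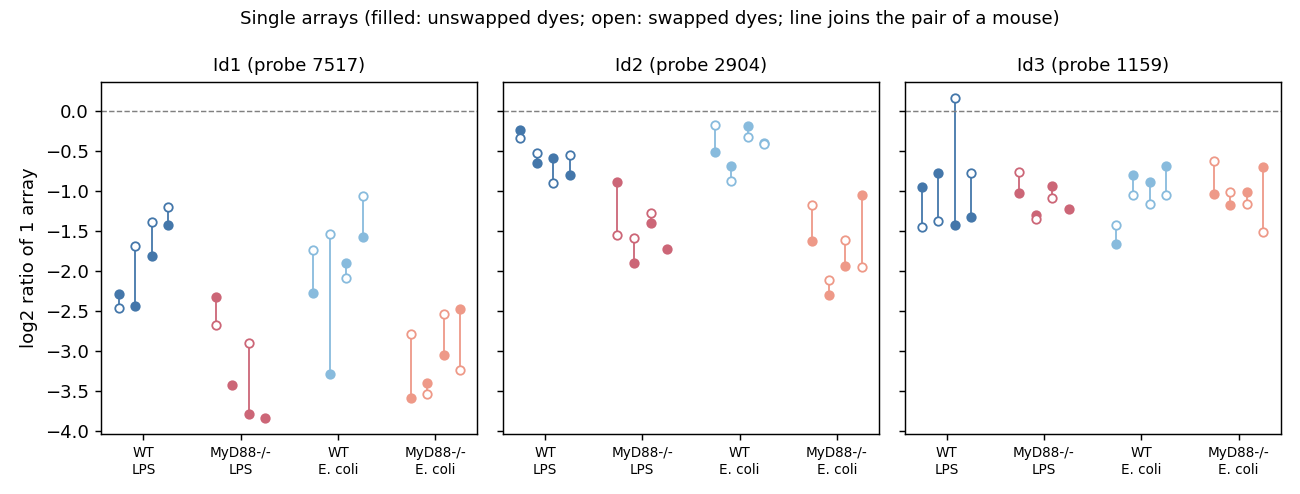
Log2 ratio of each single array (y axis) for Id1, Id2 and Id3 in the 4 groups (x axis), with filled points for unswapped and open points for swapped dyes, joined within a mouse. The longest joins are those of Id1 in wild-type E. coli mouse 2 (1.75) and of Id3 in wild-type LPS mouse 3 (1.58), while Id2 pairs differed by 0.90 at most.

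Promoters of Id1, Bambi and Smad7 are not shown, and the reference used held no entry for Id1. The proximal promoters of Id2, Id3 and Smad6 are given below. Id2 differed between genotypes with E. coli, Id3 did not pass, and Smad6 fell with them in wild-type cells. The sequences are from RefSeq (build GRCm38.p6), written along the gene from 250 bases before the annotated start to 20 bases after it. Capitals mark the SMAD palindrome GTCTAGAC and the GC-rich SMAD element GGCGCC, on either strand. Id2 lies at chr12:25096073-25096342 on the minus strand, Id3 at chr4:136143572-136143841 on the plus strand and Smad6 at chr9:64022040-64022309 on the minus strand.
Id2: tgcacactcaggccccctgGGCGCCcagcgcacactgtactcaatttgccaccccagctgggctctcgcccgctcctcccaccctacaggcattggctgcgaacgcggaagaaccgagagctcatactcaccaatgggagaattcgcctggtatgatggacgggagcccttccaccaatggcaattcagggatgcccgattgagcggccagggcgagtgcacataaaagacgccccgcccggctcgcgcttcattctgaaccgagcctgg
Id3: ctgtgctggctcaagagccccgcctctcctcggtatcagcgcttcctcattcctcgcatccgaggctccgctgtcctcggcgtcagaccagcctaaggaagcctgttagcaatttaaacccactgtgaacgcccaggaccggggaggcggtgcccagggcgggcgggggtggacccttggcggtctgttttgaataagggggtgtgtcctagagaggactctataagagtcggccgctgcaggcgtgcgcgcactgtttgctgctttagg
Smad6: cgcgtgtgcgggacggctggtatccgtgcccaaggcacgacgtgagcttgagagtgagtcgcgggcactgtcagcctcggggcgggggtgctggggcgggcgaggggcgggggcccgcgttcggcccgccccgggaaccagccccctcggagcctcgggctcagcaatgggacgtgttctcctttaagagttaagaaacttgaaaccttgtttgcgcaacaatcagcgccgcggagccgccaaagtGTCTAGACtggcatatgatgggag

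The Smad6 window held GTCTAGAC once, beginning 4 bases before the start, and 0.183% of 32851 mouse promoter windows of this length held it. The Id2 window held GGCGCC once, beginning 231 bases before the start, a sequence present in 10.4% of windows. The Id3 window held the shorter SMAD box CAGAC once on each strand, and 45.4% of windows held it on at least 1 strand. The E-box CANNTG was found in the Id2 and Smad6 windows and in 68.9% of all windows. None of the marked or listed matches overlapped another. These matches describe the letters of the windows and are not evidence of binding.

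Smad6, an inhibitory Smad that acts mainly on the BMP branch, fell in wild-type cells with both stimuli. The probe (6735) had values on 27 arrays. With LPS the wild-type mice had ratios of -2.26, -2.66, -2.06 and -0.79, and the MyD88-/- mice had 0.71, -1.16, -0.42 and 0.43. The groups overlapped only through wild-type mouse 4 and MyD88-/- mouse 2. The wild-type mean was -1.94 ± 0.81 (SD, n = 4), 26.0% of mock (limma adjusted p = 0.00129), and the MyD88-/- mean was -0.11 ± 0.85 (SD, n = 4, adjusted p = 0.899).

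With E. coli the wild-type mice had Smad6 ratios of -2.10, -0.84, -0.96 and -1.69, and the MyD88-/- mice had -0.68, -1.37, -1.02 and 0.51. The ranges overlapped, with mice of both genotypes between -1.37 and -0.84. The wild-type mean was -1.40 ± 0.60 (SD, n = 4), 38.0% of mock (limma adjusted p = 0.0107), and the MyD88-/- mean was -0.64 ± 0.82 (SD, n = 4, adjusted p = 0.32).

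The Smad6 genotype difference ran opposite to that of Id1 and Id2 but did not pass. For LPS it was 1.83 ± 0.50 (SE), with a 95% interval of 0.76 to 2.91, an unadjusted p of 0.00245 and an adjusted p of 0.213 in limma, and the exact permutation p was 0.057. For E. coli it was 0.76, with a 95% interval of -0.32 to 1.83 (limma adjusted p = 0.559). The arrays of a Smad6 dye pair differed by a median of 1.21 and by up to 2.38 over 11 pairs. On unswapped arrays alone the wild-type LPS value was -1.23 and did not pass (limma adjusted p = 0.185), and the E. coli value was -1.59 (adjusted p = 0.0819). The wild-type E. coli call also ended without mouse 1 (-1.16, adjusted p = 0.0737) or mouse 4 (-1.30, adjusted p = 0.0506) of that group.

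Smad7, an inhibitory Smad that acts on both the BMP and the TGF-beta branch, stayed near the mock level in all 4 groups. The probe (8770) had a value on all 31 arrays, and the 16 ratios ran from -0.41 to 0.54 with mice on both sides of 0 in 3 of the 4 groups. The means were 0.17 ± 0.10, -0.09 ± 0.19, 0.16 ± 0.28 and -0.06 ± 0.40 (SD, n = 4 each) in the same order of groups, with limma adjusted p between 0.466 and 0.879. The 95% intervals of the 4 responses ran at most from -0.40 to 0.48, so a change as large as that of Id3 lies outside them. The genotype differences of -0.26 (LPS, adjusted p = 0.744) and -0.22 (E. coli, adjusted p = 0.694) did not pass in limma.

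Bambi had low ratios on few arrays. The probe (8864) carried values above the floor on 18 arrays, with 4 arrays in each group except MyD88-/- E. coli, which had 6, and 1 value at the floor on the swapped array of MyD88-/- LPS mouse 3. With LPS, wild-type mice 1, 2 and 4 had ratios of -4.10, -0.97 and -2.14, and MyD88-/- mice 1 to 3 had -0.16, -1.13 and -4.43. The spread within either group exceeded the distance between them. The Bambi fit had no value for mouse 3 of wild-type LPS, mouse 4 of MyD88-/- LPS and mouse 2 of wild-type E. coli.

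With E. coli, wild-type mice 1, 3 and 4 had Bambi ratios of -1.53, -1.36 and -0.55, and the 4 MyD88-/- mice had -1.99, -2.44, -3.23 and -2.17. No ratio of Bambi was above 0 in any group, and the E. coli groups did not overlap. The fitted response passed in wild-type LPS (-2.40, n = 3, limma adjusted p = 0.0308) and MyD88-/- E. coli (-2.46, n = 4, adjusted p = 0.0179). It did not pass in MyD88-/- LPS (-1.91, n = 3, adjusted p = 0.114) or wild-type E. coli (-1.15, n = 3, adjusted p = 0.274). The wild-type LPS call ended without mouse 1 (-1.55, limma adjusted p = 0.241) or mouse 4 (-2.53, adjusted p = 0.0821) of that group. The MyD88-/- E. coli call of Bambi ended without mouse 2, 3 or 4 of its group (limma adjusted p = 0.0713, 0.0924 and 0.0545). The genotype difference was 0.49 for LPS (limma adjusted p = 0.908) and -1.31 for E. coli (95% interval -3.28 to 0.67, adjusted p = 0.577). The exact 2-sided permutation p for E. coli was 0.057. With 3 against 4 mice that test can give no smaller p, so it could not have passed.

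Counted over the members, calls were falls and none was a rise. In wild-type cells given LPS 3 of the 4 members tested there (Id3, Bambi and Smad6) were called lower, where 9.04% of all probes were. In MyD88-/- cells given LPS it was 1 of 4 (Id3) against 4.7%. In wild-type cells given E. coli 4 of 6 (Id1, Id2, Id3 and Smad6) were called lower against 11.8%, and in MyD88-/- cells 4 of 6 (Id1, Id2, Id3 and Bambi) against 4.42%. For the genotype difference 0 of 4 were called with LPS, where 0.287% of probes were called in either direction and 0.218% as lower in MyD88-/-. With E. coli 1 of 6 was called, Id2 as lower in MyD88-/-, where 0.751% of probes were called and 0.546% as lower. For the LPS genotype difference 1 of the 4 members tested, Smad6, had an unadjusted p under 0.05 in limma. Over all probes it was 653 of 7325. E. coli ratios that did not overlap and were lower in MyD88-/- were found for 3 of the 6 members (Id1, Id2 and Bambi) and for 4.3% of probes tested. For LPS such a separation was seen in Id1 and Id2, where 3.28% of probes had it and the choice of the genes had fixed it. The genes were picked with results of these data in view, and Bambi was measured in 3 wild-type mice only, so these shares are descriptions.

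**Figure D3:**
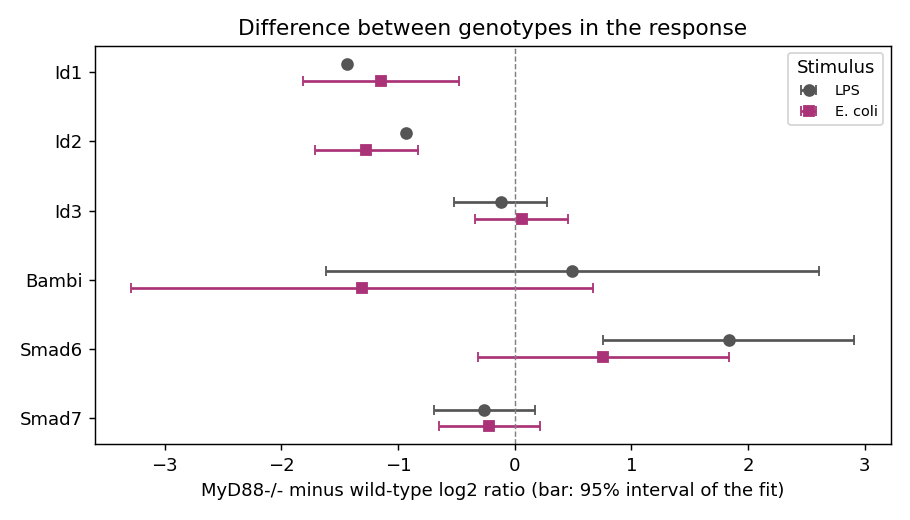
MyD88-/- minus wild-type log2 ratio (x axis) of each member (y axis) for LPS (circles) and E. coli (squares), with bars for the 95% interval of the limma fit, and no bar for the LPS values of Id1 and Id2 on which these genes were chosen. The E. coli intervals of Id1 and Id2 lie below 0, the LPS interval of Smad6 lies above 0, and those of Id3 and Smad7 are short and cross 0.

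The genes whose pattern was most like that of Id1 and Id2 over the 16 mouse ratios were found by Pearson correlation among 4698 probes with 1 symbol and a value in every mouse. For Id1 they were Epop (r = 0.911), the chemokine gene Ccl7 (0.903), Coq10b (0.884), the transcription factor gene Klf6 (0.875) and Eef1e1 (0.874). For Id2 they were the chemokine gene Ccl2 (r = 0.926), Pnkd (0.916), Ccl7 (0.905), Net1 (0.899) and the transcription factor gene Cebpd (0.898). Id1 and Id2 correlated with each other at r = 0.820, and Id1 with Id3 at 0.280. Among 5455 probes Id2 ranked 18 in likeness to Id1, and Id1 ranked 41 in likeness to Id2. The 16 ratios include the LPS values on which Id1 and Id2 were chosen. That choice partly fixed their likeness to each other and their distance from Id3. The 16 points share mice and perhaps mock RNA and fall into groups by genotype, so r is a description with no p, and correlations within a genotype were not computed.

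A like pattern did not mean a like direction. Ccl7 had a mean ratio of 2.54 in wild-type LPS and 3.03 in wild-type E. coli against 0.16 and -0.02 in MyD88-/- cells, whereas Id2 was below 0 throughout. Cebpd had 1.29 and 1.78 in wild-type cells and -1.18 and -1.22 in MyD88-/- cells. Pnkd came nearest to Id2 in level as well, with -0.43 and -0.23 in wild-type and -1.58 and -1.69 in MyD88-/- cells.

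The rest of the pathway was read from 7 lists of 125 genes beyond the members, of which 107 were on the array and 46 had enough values to be tested. In wild-type cells 6 of the 46 rose and 9 fell with LPS, and 5 rose and 10 fell with E. coli. Over all probes 17% and 21.2% were called in those 2 comparisons. In MyD88-/- cells 4 rose and 8 fell with LPS, where 9.98% of probes were called, and 3 rose and 7 fell with E. coli, where 10.8% were. The medians over the 46 genes pooled, from -0.11 to -0.03, stood beside medians of -0.06 to -0.05 over all probes tested. Medians of single lists spread more widely. They ran from -0.59 (3 Smads, wild-type LPS) to 0.91 (1 ligand gene, wild-type E. coli).

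Ligands and receptors were thinly measured. Of 21 BMP and related ligands 16 were on the array and 1 was tested. It was Gdf2, which encodes BMP9, with 0.76 in wild-type LPS and 0.91 in wild-type E. coli (limma adjusted p = 0.0062 and 0.00143) and 0.14 and 0.07 in MyD88-/- cells. Its genotype differences did not pass (limma adjusted p = 0.488 and 0.137). Of 15 TGF-beta and activin genes 2 were tested, Inha and Inhbc, and 0 passed in any response in limma, with 1 unadjusted p under 0.05, in MyD88-/- LPS. Of 17 receptor genes 6 were tested, among them Acvr1, Tgfbr1 and Eng, and 0 passed in any response in limma, with 1 unadjusted p under 0.05 in MyD88-/- cells for each stimulus and 0 in wild-type cells. Over all 7325 probes such p were found for 1601 (LPS) and 1627 (E. coli) in MyD88-/- cells. In wild-type cells it was 2141 and 2412.

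The Smads that carry the signal included 1 that fell throughout. Smad1, which BMP receptors phosphorylate, had -0.59, -0.53, -1.01 and -0.71 in that order of groups (limma adjusted p = 0.0133, 0.0366, 0.00018 and 0.00549). Smad3, of the TGF-beta branch, fell with LPS in wild-type cells (-1.0, adjusted p = 0.0436), and Smad5 did not pass. Of 9 antagonists tested, Ski, a repressor that binds Smads, fell in 3 groups (-0.95, -0.60 and -0.79) and gave -0.49 in MyD88-/- E. coli (limma adjusted p = 0.0566). Tob1, which restrains BMP Smads, fell in MyD88-/- cells (-0.98 with LPS and -1.11 with E. coli) and had 0.07 and 0.29 in wild-type cells, but the genotype differences did not pass (limma adjusted p = 0.282 and 0.0627). Its relative Tob2 did not pass in any group. In the same order of groups 2, 1, 1 and 1 of the 3 Smads and 1, 2, 1 and 1 of the 9 antagonists were called lower. Over all probes 9.04%, 4.7%, 11.8% and 4.42% were.

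Of 10 other target genes of BMP and TGF-beta tested, 3 rose and 1 fell with LPS in wild-type cells and 1 rose in MyD88-/- cells. With E. coli 2 rose and 2 fell in wild-type cells and 1 rose in MyD88-/- cells. Over all probes 17% and 9.98% were called with LPS in wild-type and MyD88-/- cells, and 21.2% and 10.8% with E. coli. Junb, an AP-1 transcription factor gene, rose in all 4 groups, by 2.03, 1.34, 2.36 and 1.30 in the order above. Tsc22d1 rose in wild-type cells, with 1.30 and 1.54, and had 0.27 and 0.28 in MyD88-/- cells, a genotype difference that did not pass (limma adjusted p = 0.367 and 0.109). Klf10, a TGF-beta early response gene, fell in wild-type cells (-1.33 with LPS and -1.48 with E. coli) and had 0.29 and 0.34 in MyD88-/- cells. Its genotype difference of 1.62 for LPS and 1.82 for E. coli passed in limma (adjusted p = 0.0016 and 0.000258), opposite in sign to that of Id2.

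A list of E proteins, other helix-loop-helix factors and Ets factors held 15 tested genes of 19 listed. Whether Id proteins bind each of them was not examined. With LPS 2 rose and 5 fell in wild-type cells, where 17% of all probes were called, and 3 rose and 5 fell in MyD88-/- cells, where 9.98% were. With E. coli 2 rose and 6 fell in wild-type cells (21.2% of probes called), and 2 rose and 5 fell in MyD88-/- cells (10.8%). Lyl1, a blood-cell factor that pairs with E proteins, fell in all 4 groups (-3.54, -1.96, -2.94 and -2.15 in the same order), as did Bhlhe41 (-2.34, -1.85, -1.80 and -1.83). Mitf rose in all 4 (1.71, 1.33, 1.22 and 1.75). The E protein gene Tcf12 also fell in all 4 groups (-0.51, -0.44, -0.63 and -0.57), while the E protein gene Tcf4 did not pass in any. Tal1 and Tfeb fell and Ets2 rose in all 4 groups too. For the genotype difference 0 of these 15 genes passed with either stimulus in limma. Unadjusted p were under 0.05 for 4 with LPS and 0 with E. coli, and over all 7325 probes for 653 and 974.

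**Figure D4:**
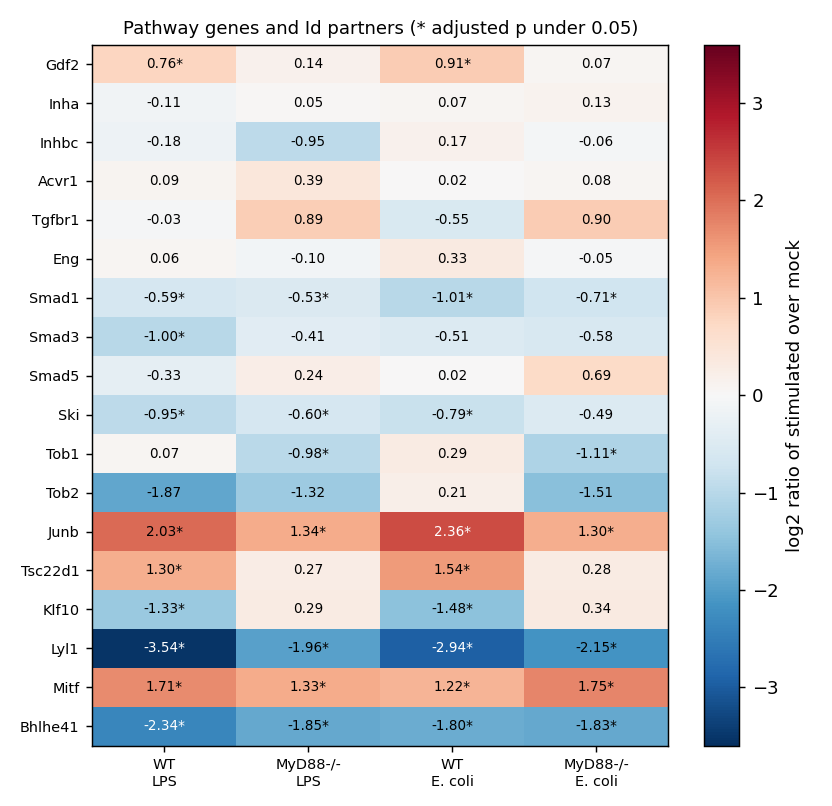
Mean log2 ratio of stimulated over mock (colour and number) for the named pathway genes and helix-loop-helix factors (rows) in the 4 groups (columns), with an asterisk where the limma adjusted p was under 0.05. Smad1, Lyl1 and Bhlhe41 fell and Junb and Mitf rose in all 4 groups, and Klf10 fell in wild-type cells only.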

How the data were processed

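Per the labels, slides were scanned and quantified with GenePix software and the data were analysed in BASE and GeneSpring. The deposited value of a probe on an array is a log2 ratio between its channels, normalized by the authors. Background correction, normalization, spot filter and ratio direction are not given in the sources used here. Values at the floor of -6.64 (4333 of 265421) were treated as missing, and a mouse's dye pair was averaged, giving 16 ratios. No array's sign was turned, since all 15 dye pairs correlated above 0. Columns left unmapped numbered 0.

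Probes measured in 3 or more of the 4 mice of all groups entered the limma fit (version 3.58.1, R 4.3.3), which used lmFit and eBayes with 1 coefficient per group and had prior degrees of freedom of 2.97. Benjamini-Hochberg adjustment ran over these 7325 probes. All p are 2-sided. The procedure was tested on simulated data. Exact permutation tests used scipy 1.17.1 and figures matplotlib 3.10.9 in python 3.11.15.

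The members, gene lists and tests were chosen with earlier results of these data known. Named genes are all members, the 3 genes of smallest p over the 4 responses in each pathway list, the 5 probes most like Id1 and like Id2, and Myd88. Tcf4, Tcf12, Tal1, Tfeb and Ets2 were added after their values were seen. Where a pathway gene had several probes, the probe with values on most arrays stands for it. Symbols come from the platform annotation.

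Within a genotype the mouse numbers of the labels recur for both stimuli, without a statement that a number is 1 animal. Residuals of same-numbered mice correlated between -0.057 and 0.142, so the main fit has no replicate block. That the 4 mice of a group are separate animals is read from their numbers. Alternatives covered centring, scaling, the floor, the dyes, the filter, the groups in the fit, blocks, the variance prior and leaving out each mouse.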

Additional observations from a re-analysis of the deposited data

Results flagged for a closer look

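Id2 responded differently to E. coli in the genotypes, with MyD88-/- minus wild-type at -1.27 (limma adjusted p = 0.00585). All 4 MyD88-/- mice were lower than all 4 wild-type mice.

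Among the pathway genes, Junb also differed between genotypes in the E. coli response, by -1.06 (limma adjusted p = 0.00745), rising in both. Klf10 differed by 1.62 for LPS (limma adjusted p = 0.0016). Its E. coli difference was 1.82 (limma adjusted p = 0.000258), with called falls in wild-type cells and none in MyD88-/- cells.

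For Id3, MyD88-/- E. coli mouse 1, at -0.84, stood apart from the other 3 mice of its group, which lay between -1.11 and -1.09. It was 1 of 21 groups of 4 mice examined for such a gap, and chance marks about 1 in 20.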

How the results depend on the processing

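The E. coli genotype difference of Id1 passed with the dye as a term and mouse and stimulus as a random block (-1.14, limma adjusted p = 0.0209). That fit counts the arrays of a dye pair nearly as separate mice. Over the other alternatives the adjusted p of this difference ran from 0.0647 to 0.481, with -1.30 to -0.94 leaving out single mice. The E. coli genotype difference of Id2 missed the threshold on unswapped arrays (-1.28, adjusted p = 0.0518) and with only its groups in the fit (-1.27, adjusted p = 0.0834). It ranged from -1.38 to -1.11 leaving out single mice. The wild-type E. coli response of Id2 missed it with arrays scaled (-0.41, adjusted p = 0.0703), on unswapped (-0.45, 0.0936) or swapped arrays (-0.45, 0.0979), with values in at least 2 mice (-0.45, 0.0549) and with only its group in the fit (-0.45, 0.164). Leaving out single mice gave -0.51 to -0.34, and the call also ended without wild-type LPS mouse 2 (0.0506) or MyD88-/- E. coli mouse 3 (0.0521). The wild-type LPS fall of Bambi missed the threshold with arrays scaled (-2.05, adjusted p = 0.0993), the floor kept (0.0748) or only its group in the fit (0.163), its MyD88-/- E. coli fall with the floor kept (0.0533), and the wild-type LPS fall of Smad6 with only its group in the fit (0.0521).

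Signs turned only in values that had not passed or were given with no test. The Id3 E. coli genotype difference ranged from -0.091 to 0.13 leaving out single mice. The Bambi LPS genotype difference was -0.089 with arrays scaled and ranged from -0.38 to 1.75. Smad6 in MyD88-/- LPS ranged from -0.38 to 0.24. Smad7 in MyD88-/- LPS was 0.0080 on unswapped arrays, and in MyD88-/- E. coli ranged from -0.22 to 0.062. The wild-type Id1 stimulus difference, a description with no test, was 0.083 on swapped arrays and ranged from -0.30 to 0.083 leaving out single mice. In MyD88-/- cells it was -0.23 on swapped arrays. The causes were not tested.

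Of 16 responses of Id3, Bambi, Smad6 and Smad7, 8 were called, 4 on unswapped arrays and 7 to 8 leaving out single mice. Of the pathway genes 19 were called in some response, 12 with only its group in the fit and 17 to 20 leaving out single mice. Over all probes the 1247, 731, 1554 and 789 calls (wild-type and MyD88-/- with LPS, then with E. coli) became 375, 255, 587 and 276 with only 1 group in the fit. They became 700, 307 and 917 in the first 3 on swapped arrays, and 511 in the last without its mouse 2. The 21 calls of the LPS genotype difference became 42 with the dye term and random block, 35 with values in all 4 mice, 12 on arrays of either orientation and 4 with only its groups. The 55 of E. coli became 189, 86, 24 (unswapped) and 23, and 35 without wild-type or MyD88-/- E. coli mouse 1. The counts are not of the same probes. The main and dye-term fits tested 7325, against 5456 with values in all 4 mice, 5758 on swapped and 5725 on unswapped arrays. With only its groups in the fit 8090 (LPS) and 7887 (E. coli) were tested for the genotype difference, and with 1 group 8619 to 9339.

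The mouse number as a replicate block could enter the comparisons between stimuli. With the block the Id1 stimulus differences stayed at -0.09 and 0.20. In limma 0 probes passed with or without the block for either stimulus difference or the interaction (unadjusted p under 0.05 for 390, 260 and 297 with it). With values in at least 2 mice 1 of 8923 probes passed in wild-type cells. As a random block it changed no call of a member. Signal over background was not analysed here, so detection was judged only by which arrays carry a value.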
